A study of Mus musculus with 36 samples.

Results

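Oxidative phosphorylation subunits are the protein building blocks of the mitochondrial respiratory chain and of ATP synthase. Members were the nuclear genes whose annotated symbol starts with Ndufa, Ndufb, Ndufc, Ndufs, Ndufv, Uqcr, Cox4 to Cox8 or Atp5, together with Cyc1, without the Ndufaf assembly factors and pseudogenes. The rule found 79 of the 19938 genes that have a probe set naming them alone, and 77 of these were among the 13956 genes bright enough to be tested. By symbol, the tested members comprised 35 genes of complex I, 9 of complex III, 16 of complex IV and 17 of complex V.

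The RNA came from livers of C57BL/6J mice that were 16 weeks old at sacrifice, fed ad libitum and housed in a cycle with 12 h of light. The diets were normal chow (18 samples) and a diet with 60% of kcal from fat (18 samples), each eaten for 10 weeks. Livers were taken every 4 h at zeitgeber time (ZT, hours after lights on) 0, 4, 8, 12, 16 and 20, so that ZT12 was the time of lights off and ZT16 and ZT20 fell in the dark. Each of the 12 groups held 3 samples, 1 Affymetrix whole-transcript gene array each, 36 in all. The comparisons asked how the diet, the time of day and both together related to transcript levels. Values are log2(intensity + 16), and a difference of -0.17 on this scale corresponds to an intensity (with 16 added) lower by about 11%. The labels number the samples of a group and say nothing on whether each came from an animal of its own, so a p-value here reflects only how these samples scatter, which may be technical.

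Complex I takes electrons from NADH and complex III passes them from ubiquinol to cytochrome c. Complex IV hands them to oxygen, and complex V, the ATP synthase, uses the proton gradient that the other complexes build to make ATP. In the liver this machinery supplies ATP for gluconeogenesis, urea synthesis and lipid handling, and it consumes the electrons released when fatty acids are oxidised. Each complex except complex II also holds subunits made from mitochondrial DNA, and these were not analysed here.

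The members were bright on these arrays. Their median mean level was 10.63, against 7.76 over all tested genes, and the residual SD between samples of a group was 0.0602 to 0.238, with a median of 0.117, against 0.139 over all tested genes. Atp5d (delta subunit of the central stalk, 12.61), Cox6c (12.58) and Atp5b (catalytic beta subunit, 12.49) had the highest means, although levels of different probe sets are not to scale with each other. Only Cox7b2 (5.22) and Ndufa4l2 (5.78), isoforms known from testis and from hypoxic cells respectively, lay below the filter at 6.11, while Cox6b2 (6.18) and Cox8b (6.23) lay just above it. The hepatocyte markers among the fixed marker lists had means from 12.93 to 13.57. Samples of one group correlated at 0.980 or above over all tested genes, and no pair of arrays held identical values.

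Promoter sequences of 6 members are given first. Uqcrh and Atp5o had the strongest calls for diet described further on, and Ndufb2 and Atp5l those for time of day. Ndufa11 and Atp5k are the other members holding the NRF1 motif among those called lower on the high fat diet or rhythmic on chow. NRF1, GABPA of the ETS family and ERRA are factors known to act on genes of this pathway. Each sequence is the 150 bases before the listed start site, 5′ to 3′, from RefSeq's table for GRCm38.p6. Capitals mark matches on either strand to the core of the NRF1 motif (GCGCATGCG), the motif of the ETS family (CCGGAAG), the motif of ERRA or ROR (AAGGTCA), the E-box (CACGTG), the CCAAT box (CCAAT), the YY1 motif (AAGATGGC) or the D-box (TTATGTAA).

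Uqcrh, chr4:116075071-116075220, minus strand: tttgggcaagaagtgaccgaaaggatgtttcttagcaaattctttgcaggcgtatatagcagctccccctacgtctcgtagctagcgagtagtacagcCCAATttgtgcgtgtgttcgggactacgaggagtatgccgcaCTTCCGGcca

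Ndufa11, chr17:56717612-56717761, plus strand: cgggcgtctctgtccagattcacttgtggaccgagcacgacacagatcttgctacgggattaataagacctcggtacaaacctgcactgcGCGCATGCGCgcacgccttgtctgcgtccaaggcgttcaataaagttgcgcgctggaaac

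Atp5o, chr16:91931631-91931780, minus strand: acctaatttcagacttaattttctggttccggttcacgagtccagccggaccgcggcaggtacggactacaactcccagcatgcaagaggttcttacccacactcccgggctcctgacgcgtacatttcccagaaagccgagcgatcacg

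Atp5k, chr5:108434400-108434549, minus strand: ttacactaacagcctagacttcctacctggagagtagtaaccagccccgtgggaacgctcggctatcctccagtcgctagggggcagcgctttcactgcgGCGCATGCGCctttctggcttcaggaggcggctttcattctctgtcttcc

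Ndufb2, chr6:39592415-39592564, plus strand: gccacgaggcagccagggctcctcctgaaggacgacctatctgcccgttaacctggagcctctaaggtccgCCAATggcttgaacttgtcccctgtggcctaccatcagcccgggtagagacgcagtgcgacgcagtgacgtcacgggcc

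Atp5l, chr9:44920743-44920892, minus strand: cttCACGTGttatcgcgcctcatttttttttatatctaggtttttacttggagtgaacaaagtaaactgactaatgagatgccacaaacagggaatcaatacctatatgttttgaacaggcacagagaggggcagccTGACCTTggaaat

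With positions counted from the start site, the NRF1 matches printed begin at -60 in Ndufa11 and at -50 in Atp5k. In both, the core is met on each strand, 1 base apart, so these matches overlap, and no others printed do. Uqcrh holds a CCAAT box at -52 and an ETS match at -10, while the sequence of Atp5o holds none of the 7 motifs. Ndufb2 has a CCAAT box at -79, and Atp5l has an E-box at -147 and a match to AAGGTCA at -13. In the longer window of 250 bases, Atp5l also held the NRF1, ETS and CCAAT motifs, and Ndufb2 also held AAGGTCA. These further matches do not lie within the bases printed. Over the 250 bases before the start, 6 of the 64 members with a listed promoter held the NRF1 core, or 9.38%. That core was shortened after a first search had been seen. Of all 27025 genes with a listed promoter, whether tested here or not, 1.64% held it. The ETS motif was found in 11 members, or 17.2%, against 7.83% of those genes. The shares were close to those of all genes for the E-box (9.38% against 6.86%), AAGGTCA (6.25% against 4.7%), CCAAT (42.2% against 37.5%), YY1 (1.56% against 1.83%) and the D-box (1.56% against 0.977%). Among the members called lower on the high fat diet, 9 had a listed promoter. Of these, 3 held the CCAAT box, 2 the E-box, 1 the NRF1 motif, 1 the ETS motif and 0 each of the other motifs. Among the 10 called rhythmic on chow, 4 held the CCAAT box, 2 the NRF1 motif, 2 the ETS motif, 2 AAGGTCA, 1 the E-box and 0 the YY1 motif or D-box. A match describes letters in the window and was not tested for binding.

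Averaged over the 6 times, 11 of 77 members were lower on the high fat diet and none was higher by limma at an adjusted p under 0.05. Over all 13956 tested genes, 9.80% were called lower and 11.2% higher, so the share of members called lower, 14.3%, was not far above the background, whereas the share called higher was 0. By the unadjusted p under 0.05, 22 members passed in either direction, 28.6% against 32.1% of all genes. The differences were small, from 5.31% to 11.3% in intensity with 16 added for the called members. The sign leaned downwards more widely than the calls: 59 of 77 members had a difference below 0, or 76.6%, against 42.5% of all tested genes. A lower group mean at all 6 times was found in 10 members, or 13.0%, against 6.64% of all tested genes. The median difference was -0.041 over members and 0.017 over all tested genes. It was -0.038 in complex I, -0.079 in complex III, -0.049 in complex IV and -0.045 in complex V. Under the other scalings 55 members (quantile normalization) and 70 members (median centring) were below 0, against 52.6% and 60.8% of all tested genes. With median centring, 22 members were called lower and none higher, and with limma's array weights 19 were lower and 2 higher. Over all genes, the split of 1367 lower to 1570 higher calls became 1712 to 1455 with quantile normalization and 1926 to 827 with median centring. With array weights it was 1996 to 2263, so calls rose over all genes as well.

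**Figure D1:**
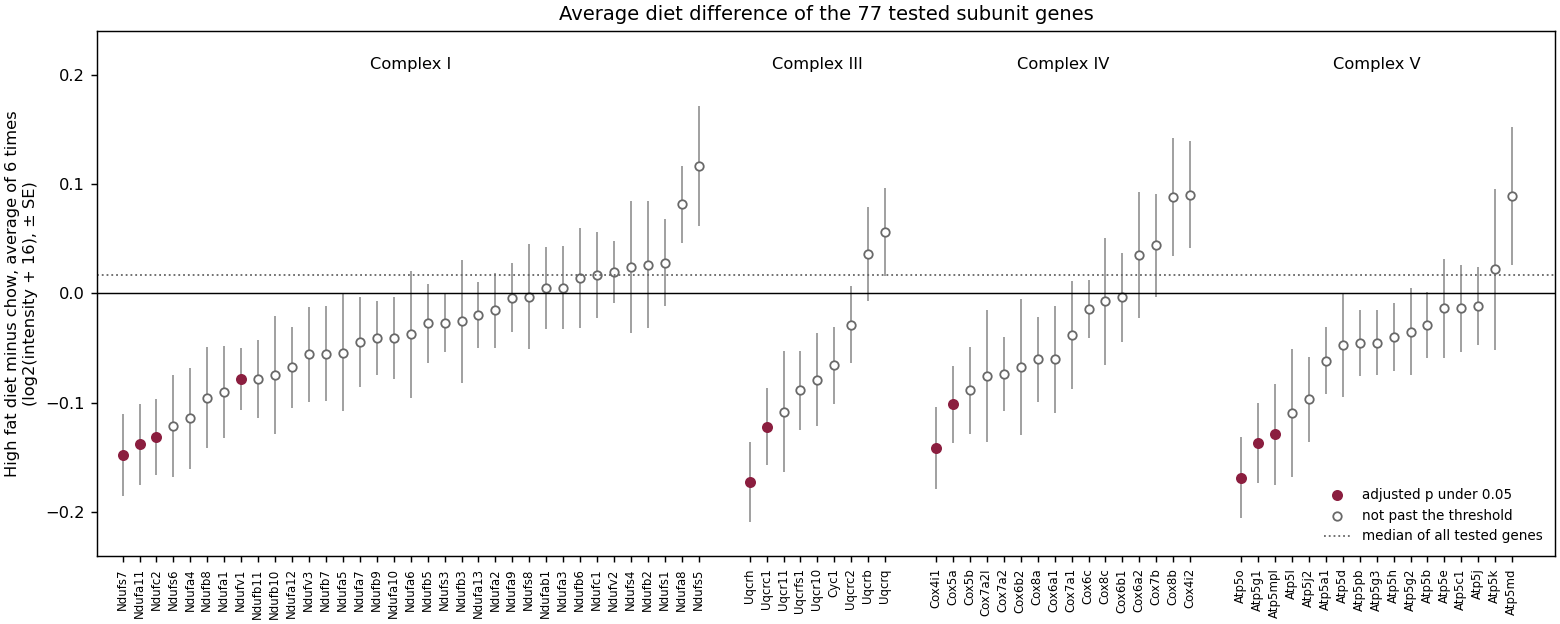
Average high fat diet minus chow difference of each tested member on the log2(intensity + 16) scale, with the standard error of the limma fit, grouped by complex. Filled points are called members and the dotted line is the median of all tested genes. The 11 called members lie between -0.17 (Uqcrh) and -0.079 (Ndufv1), and no member is called above 0, where Ndufs5 is highest at 0.12.

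In complex III, Uqcrh and Uqcrc1 fell. Uqcrh, the hinge protein that helps cytochrome c meet cytochrome c1, ranged from 11.05 to 11.37 on chow (median 11.25, n = 18) and from 10.85 to 11.29 on the high fat diet (median 11.06, n = 18). The ranges overlapped, yet 16 of 18 high fat diet samples lay below the chow median and the group mean was lower at all 6 times. The difference was -0.17 ± 0.037 (SE, limma adjusted p = 0.000761). Uqcrc1, a core protein of the matrix side of the complex, had medians of 10.95 on chow (10.80 to 11.15) and 10.82 on the high fat diet (10.67 to 11.08). Its difference was -0.12 ± 0.035 (SE, limma adjusted p = 0.0118), with 14 of 18 high fat diet samples below the chow median. The other 7 members of complex III did not pass. They included Uqcrfs1, the Rieske iron-sulfur protein, at -0.089 ± 0.036 (limma adjusted p = 0.0817), although its mean was lower at all 6 times.

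In complex V, Atp5o, Atp5g1 and Atp5mpl fell. Atp5o encodes the subunit that ties the catalytic head to the peripheral stalk, and ranged from 10.10 to 10.71 on chow (median 10.32) and from 9.89 to 10.42 on the high fat diet (median 10.10). It was lower in 15 of 18 high fat diet samples than the chow median, by -0.17 ± 0.037 (SE, limma adjusted p = 0.00110). Atp5g1 is 1 of 3 genes for the same subunit c, whose copies form the rotating ring. It went from a mean of 12.10 ± 0.11 (SD, n = 18) to 11.97 ± 0.12 (SD, n = 18), a difference of -0.14 ± 0.036 (SE, limma adjusted p = 0.00648). The other genes for subunit c differed by less and did not pass: Atp5g2 by -0.035 ± 0.040 (limma adjusted p = 0.599) and Atp5g3 by -0.045 ± 0.030 (limma adjusted p = 0.320). Whether the 3 subunit c genes differ from each other in their response was not tested. Atp5mpl, a small proteolipid of the membrane part, differed by -0.13 ± 0.046 (SE, limma adjusted p = 0.0444), with ranges from 9.85 to 10.48 on chow and 9.54 to 10.28 on the high fat diet. The catalytic subunits of the head, Atp5a1 (-0.061, limma adjusted p = 0.166) and Atp5b (-0.029, limma adjusted p = 0.564), did not pass.

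Complex I had 4 called members, spread over the parts of the complex. Ndufs7, which carries the iron-sulfur cluster next to the ubiquinone site, ranged from 11.97 to 12.40 on chow (median 12.19) and from 11.87 to 12.36 on the high fat diet (median 12.04). It was below the chow median in 16 of 18 high fat diet samples, a difference of -0.15 ± 0.038 (SE, limma adjusted p = 0.00449). Ndufa11, an accessory subunit of the membrane arm, had medians of 10.32 and 10.17, with 17 of 18 high fat diet samples below the chow median, and differed by -0.14 ± 0.037 (SE, limma adjusted p = 0.00656). Ndufc2, also of the membrane arm, had medians of 11.96 and 11.83 and differed by -0.13 ± 0.035 (SE, limma adjusted p = 0.00645). Ndufv1, which binds NADH and the flavin where electrons enter, had the smallest called difference, -0.079 ± 0.028 (SE, limma adjusted p = 0.0463). All 4 had a lower mean on the high fat diet at all 6 times. Of the other 31 tested members of complex I none passed, and Ndufs5 had the highest difference of all members at 0.12 ± 0.055 (SE, limma adjusted p = 0.135).

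In complex IV, Cox4i1 and Cox5a fell. Cox4i1 is the common isoform of subunit 4, the largest of the nuclear subunits, and Cox5a is a matrix-facing subunit. Cox4i1 ranged from 10.49 to 11.02 on chow (median 10.66) and from 10.16 to 10.89 on the high fat diet (median 10.54), a difference of -0.14 ± 0.038 (SE, limma adjusted p = 0.00652). The groups overlapped widely, with 13 of 18 high fat diet samples below the chow median. Cox5a had medians of 10.33 and 10.29 and differed by -0.10 ± 0.035 (SE, limma adjusted p = 0.0386), with 12 of 18 high fat diet samples below the chow median. The call of Cox5a was lost in 16 of 36 fits that left out 1 sample, and those of Atp5mpl and Ndufv1 in 26 of 36 each, whereas the other 8 called members kept theirs in all of them.

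Complex IV also has isoforms best known from muscle, lung or testis, of which 6 were bright enough to be tested (Cox4i2, Cox6a2, Cox6b2, Cox7a1, Cox8b and Cox8c). None was called. Cox4i2, the hypoxia-responsive isoform of subunit 4 known from lung, measured 7.65 ± 0.15 (SD, n = 18) on chow and 7.74 ± 0.13 (SD, n = 18) on the high fat diet (limma adjusted p = 0.206). Cox8b, known from heart and muscle, measured 6.18 ± 0.18 and 6.27 ± 0.12 (SD, n = 18 each, limma adjusted p = 0.269), both close to the filter. The differences of the other 4 ran from -0.068 (Cox6b2) to 0.035 (Cox6a2), and the median over the 6 was 0.014, against -0.067 over the other 10 tested members of complex IV. Cox6a1, Cox7a2 and Cox8a, the forms made in liver, differed by -0.060, -0.074 and -0.060 and did not pass, nor did Cox6b1 (-0.0036), Cox7b (0.044) and Cox7a2l (-0.075), the last known from supercomplexes of complexes III and IV.

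Other markers moved with the diet. Of the Kupffer cell markers 5 of 7 were higher on the high fat diet (limma, adjusted p under 0.05), with summed intensities of 1384 to 3803 on chow and 2197 to 5321 on the high fat diet. Of the stellate cell markers 3 of 6 were higher (3913 to 6031 on chow, 4396 to 6465 on the high fat diet), and of the lymphocyte markers 2 of 4 measured were higher (402 to 605 and 477 to 695). The 2 lymphocyte markers were Ptprc (0.22) and Cd4 (0.30), while Cd3e (-0.0084) and Nkg7 (0.15) were not called. Of the adipocyte markers Fabp4 and Cidec were higher among the 3 tested (all 6 summed 333 to 512 and 315 to 1046), while Adipoq (5.49) and Ucp1 (5.33) lay below the filter. None of the 6 endothelial, 4 tested muscle and 2 tested bile duct markers was called. Of the 6 hepatocyte markers measured, Tat (-0.18) and Cps1 (-0.16) were lower, and the summed intensity was 52718 to 61847 on chow and 52734 to 60501 on the high fat diet. In whole liver, fewer cells of a type and less RNA per cell cannot be told apart, and the part of these shifts in the differences of the members was not tested. The median log2 intensity of the arrays was 6.62 ± 0.05 (SD, n = 18) on chow and 6.66 ± 0.06 (SD, n = 18) on the high fat diet.

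Compared at each time, few members were called, and most of these at ZT0. At ZT0, 4 members were lower, against 3.75% of all genes lower and 3.37% higher, and no member was higher at any time. At ZT4, 1 of 77 was lower (1.40% of all genes lower, 2.29% higher) and at ZT12 also 1 (2.97% lower, 2.47% higher). No member was called at ZT8 (0.494% lower and 0.279% higher over all genes), ZT16 (1.18% and 1.05%) or ZT20 (0.803% and 1.24%). At an unadjusted limma p under 0.05, 21 members passed at ZT0, 6 at ZT4, 0 at ZT8, 15 at ZT12, 2 at ZT16 and 3 at ZT20. The corresponding shares of all genes were 23.6%, 17.0%, 9.41%, 18.2%, 13.2% and 13.5%, so the members were not above the background at any time but ZT0 and ZT12, and there only slightly. The test of the diet by time interaction called 0 members (0.631% of all genes), with 3 at an unadjusted limma p under 0.05 against 13.4% of all genes, so no member was shown to respond differently between times.

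At ZT0, Cox4i1 measured 10.54, 10.81 and 10.68 on chow and 10.16, 10.44 and 10.42 on the high fat diet. All high fat diet samples lay below all chow samples, by -0.34 ± 0.092 (SE, limma adjusted p = 0.0250). Cox5a measured 10.38, 10.30 and 10.29 on chow and 9.92, 10.02 and 10.11 on the high fat diet, again without overlap (-0.30 ± 0.086, SE, limma adjusted p = 0.0291). Ndufa4, named for complex I but now placed in complex IV, measured 10.51, 10.36 and 10.27 on chow and 9.92, 10.06 and 10.05 on the high fat diet (-0.37 ± 0.11, SE, limma adjusted p = 0.0428). Uqcrh measured 11.29, 11.22 and 11.30 on chow and 10.94, 10.94 and 11.07 on the high fat diet (-0.29 ± 0.090, SE, limma adjusted p = 0.0489). With Ndufa4 placed this way, 3 of the 4 members called at ZT0 belong to complex IV, but all counts by complex here keep Ndufa4 in complex I. By symbol, the median difference at ZT0 was -0.075 in complex I, -0.12 in complex III, -0.0091 in complex IV and -0.061 in complex V. It was -0.10 in complex IV without its tissue-limited isoforms. Whether the complexes differ at ZT0 was not tested.

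At ZT4, Ndufs7 measured 12.28, 12.32 and 12.32 on chow and 11.92, 11.98 and 12.06 on the high fat diet, without overlap (-0.32 ± 0.092, SE, limma adjusted p = 0.0476). At ZT12, Atp5o measured 10.43, 10.48 and 10.37 on chow and 10.25, 10.06 and 10.06 on the high fat diet, also without overlap (-0.31 ± 0.090, SE, limma adjusted p = 0.0418). The call at ZT4 was lost in 20 of 36 fits that left out 1 sample and that at ZT12 in 5. The count at ZT0 lay between 0 and 4 in these fits, and was 20 with median centring, 8 with array weights and 2 without the filter on dim genes. With array weights 5 members were called at ZT8, where the fit without weights called none. The shares of all genes called at these times in those fits were not counted.

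**Figure D2:**
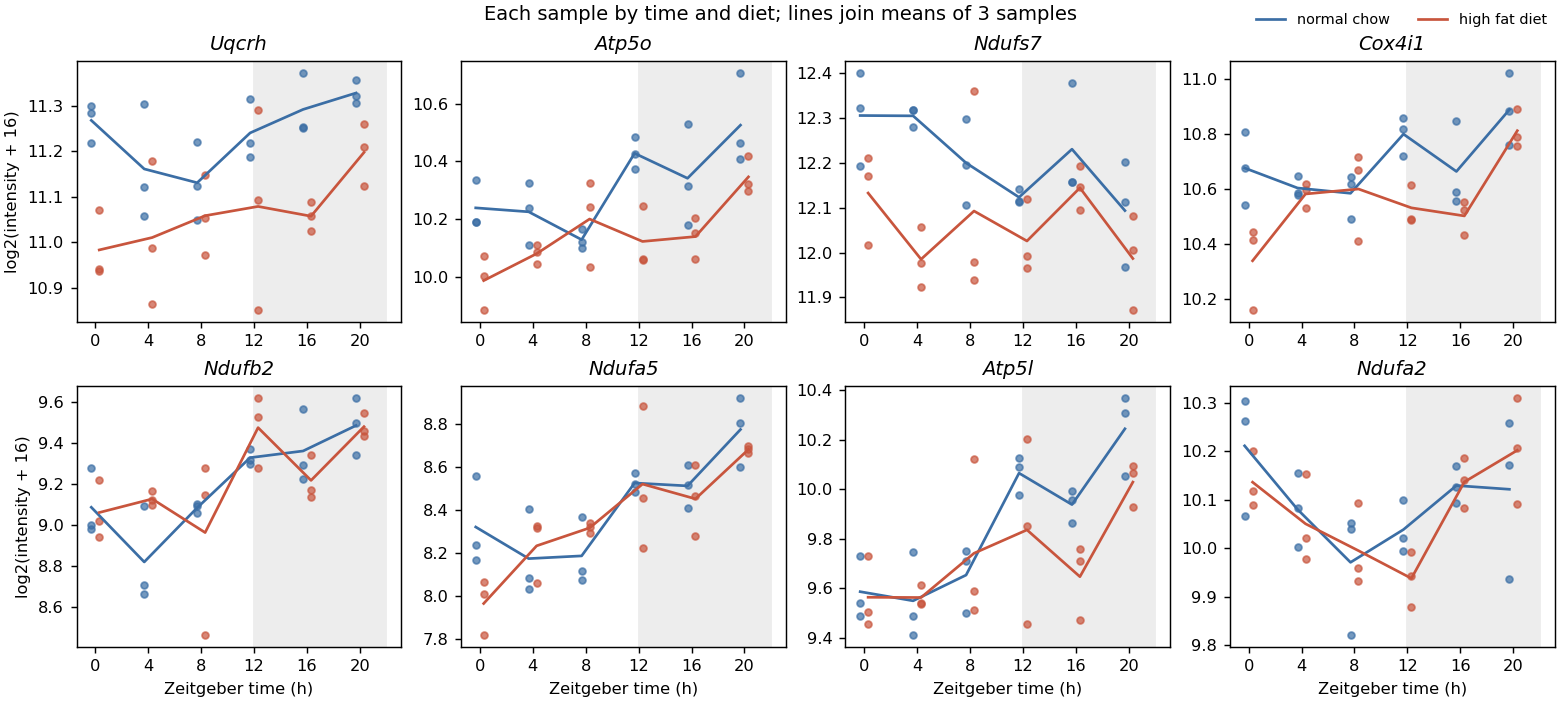
log2(intensity + 16) of each sample of 8 members by zeitgeber time, with lines through the means of 3 samples and grey from lights off at ZT12. Each panel has its own vertical range. Uqcrh is lower on the high fat diet (red) than on chow (blue) at all 6 times, whereas the diets cross over in Ndufb2 and Ndufa5.

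Over the members as a whole, ZT12 stood out by sign. There 62 of 77 differences were below 0, or 80.5%, against 49.1% of all genes, with a median of -0.10 against 0.0033. At ZT0 the count was 53, against 42.9% of all genes (median -0.071 against 0.035), at ZT16 51, against 43.7% (-0.042 against 0.021), and at ZT20 53, against 48.2% (-0.031 against 0.0062). At ZT4 and ZT8, in the middle of the light, the members were split. There 38 and 35 were below 0, against 45.8% and 48.6% of all genes, with medians of 0.00040 and 0.0065. All 3 high fat diet samples lay below all 3 chow samples in 21 members at ZT12, against 13.0% of all genes, and in 18 at ZT0, against 11.5%. The reverse order was found in 1 member at ZT12 and 6 at ZT0, against 11.7% and 14.9% of all genes. At ZT4 the high fat diet samples lay wholly below in 7 members (9.95% of all genes), at ZT8 in 2 (7.39%), at ZT16 in 6 (8.32%) and at ZT20 in 3 (6.52%). They lay wholly above in 3, 2, 1 and 1 members at these times (11.6%, 7.08%, 9.64% and 8.99% of all genes). Of the 21 members at ZT12, 8 belonged to complex V, 7 to complex I, 5 to complex IV and 1 to complex III.

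**Figure D3:**
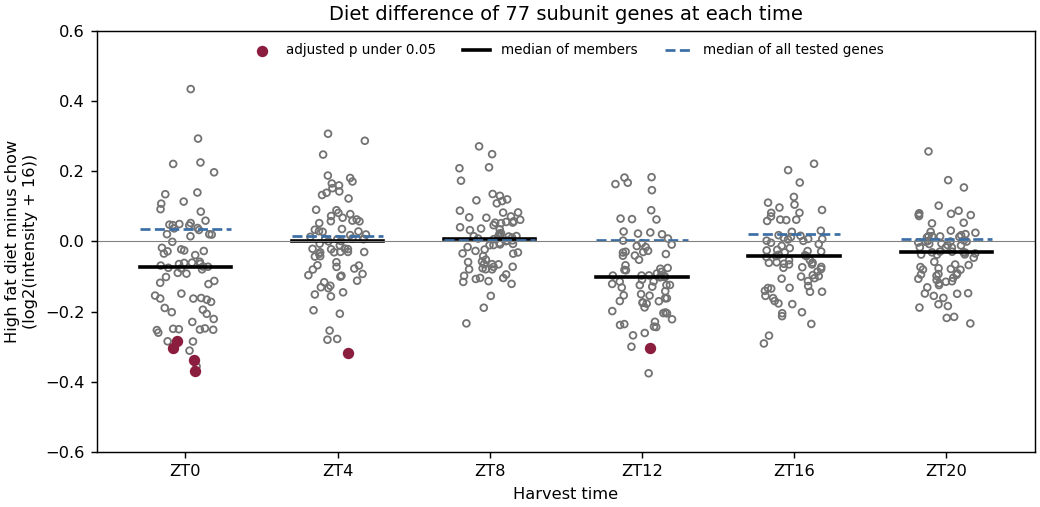
High fat diet minus chow difference of the 77 tested members at each zeitgeber time on the log2(intensity + 16) scale, 1 point per member. The black line is the members' median and the dashed blue line the median of all tested genes. The members' median is lowest at ZT12 (-0.10) and ZT0 (-0.071) and near 0 at ZT4 and ZT8.

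The members of each complex were also summarised as a mean profile over the day. For each sample, the log2 values of the members were set relative to each gene's mean over all 36 samples and averaged. On chow, complex V stood at -0.033 ± 0.069, -0.041 ± 0.005 and -0.043 ± 0.054 at ZT0, ZT4 and ZT8, and at 0.090 ± 0.014, 0.054 ± 0.083 and 0.13 ± 0.042 at ZT12, ZT16 and ZT20 (SD, n = 3 each). On the high fat diet it stood at -0.098 ± 0.039 at ZT0, -0.033 ± 0.068 at ZT12 and 0.067 ± 0.086 at ZT20 (SD, n = 3 each). At ZT12 the 3 chow samples of complex V lay at 0.10, 0.093 and 0.075 and the high fat diet samples at 0.038, -0.038 and -0.097, without overlap. At ZT0 complex III measured 0.00062, 0.072 and -0.087 on chow and -0.10, -0.11 and -0.16 on the high fat diet, so the chow samples were spread and the high fat diet samples were all lower. These are descriptions, and no test was made on the averages.

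**Figure D4:**
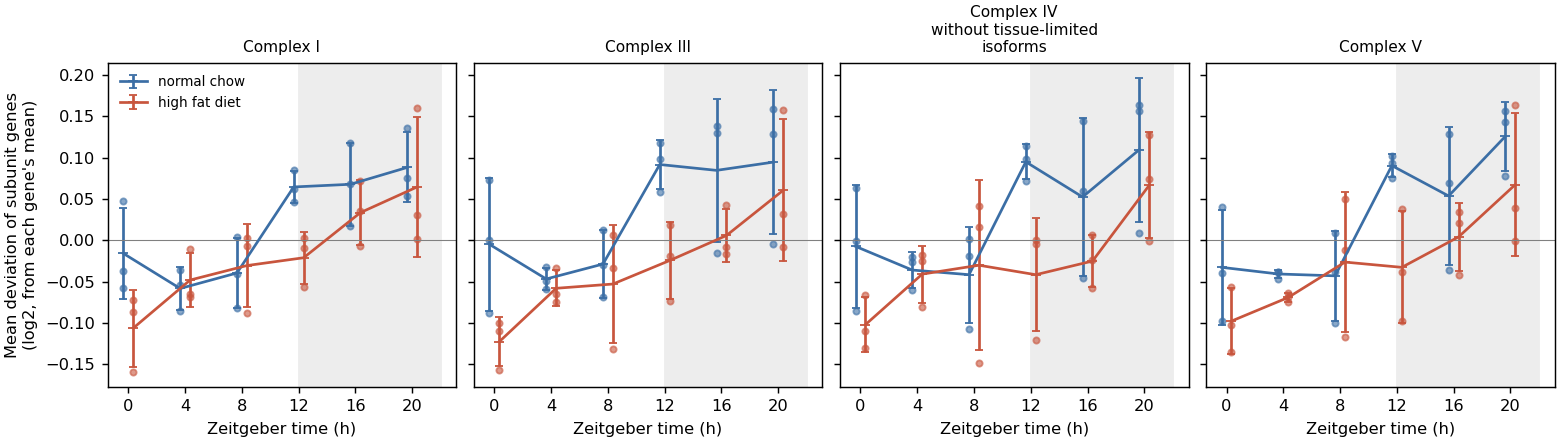
Mean over the tested members of each complex (complex IV without its 6 tissue-limited isoforms) of log2(intensity + 16) relative to each gene's mean over all samples, by zeitgeber time and diet. Error bars are the SD of 3 samples, points are samples and grey starts at lights off, ZT12. In all 4 complexes the group means are highest at ZT20 on both diets, and on the high fat diet lowest at ZT0.

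Of the high fat diet samples at ZT20, replicate 2 stood highest, with a mean over all members of 0.13, against 0.044 and 0.010 in the others. At ZT8, replicate 3 of the high fat diet lay lowest, at -0.12 against 0.016 and 0.0024. The former is also among the 4 arrays to which limma's array weights gave the least weight (0.386). Replicate 3 of chow at ZT20 is another of these (0.357). In complex I the high fat diet samples lay at 0.031, 0.16 and 0.0020 at ZT20 and at -0.0065, 0.035 and 0.072 at ZT16. In complex III the chow samples lay at -0.0039, 0.16 and 0.13 at ZT20 and at 0.12, 0.059 and 0.099 at ZT12. The samples of these times overlapped, and whether ZT20 stays highest without the low-weight arrays was not computed.

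Most members had their highest group mean at ZT12, ZT16 or ZT20. On chow this held for 63 of 77, or 81.8%, against 47.2% of all tested genes, and on the high fat diet for 66, or 85.7%, against 39.3%. With ZT12, the time of lights off, left out, the highest mean lay at ZT16 or ZT20 in 49 members on chow, against 33.7% of all genes, and in 59 on the high fat diet, against 28.1%. The single most frequent time of the highest mean was ZT20, for 37 members on chow and 41 on the high fat diet (22.6% and 15.7% of all genes). The lowest mean on chow was at ZT4 in 26 members and at ZT8 in 24, against 15.9% and 13.9% of all genes. On the high fat diet it was at ZT0 in 38 members, against 15.1% of all genes. Whether the time of the lowest mean differs between the diets was not tested. These counts are descriptions with no test, and neighbouring times often differed by less than the spread of the 3 samples.

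A 24 h wave was called in 10 of 77 members on chow by limma at an adjusted p under 0.05. This share of 13.0% lies below the 20.6% of all genes called, so the members were not rhythmic more often than other genes. What they shared was the phase: all 10 peaked between 14.5 and 18.5 h, and 55 of the 77 fitted peaks lay from 14 to 20 h, against 25.7% of all genes, a window chosen after the values were seen. Complex I held 7 of the 10 and complex V 3, with none in complexes III and IV. By the unadjusted p under 0.05, 27 members passed, 35.1% against 32.8% of all genes.

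Ndufb2, an accessory subunit of the membrane arm of complex I, had the smallest p on chow. It measured 9.09, 8.71 and 8.66 at ZT4 and 9.34, 9.62 and 9.50 at ZT20, so the samples at these times did not overlap. Its amplitude, the distance from the mean to the peak of the wave, was 0.29 ± 0.066 (SE) with a peak at 16.6 ± 0.87 h (limma adjusted p = 0.00461). Atp5l, subunit g of the membrane part where ATP synthase dimers meet, measured 9.75, 9.41 and 9.49 at ZT4 and 10.05, 10.31 and 10.37 at ZT20. Its amplitude was the largest among the 10, at 0.31 ± 0.072 (SE), with a peak at 16.4 ± 0.88 h (limma adjusted p = 0.00548). Ndufa5, an accessory subunit of the matrix arm, measured 8.40, 8.03 and 8.08 at ZT4 and 8.60, 8.80 and 8.92 at ZT20, with an amplitude of 0.27 ± 0.066 (SE) and a peak at 17.6 ± 0.93 h (limma adjusted p = 0.00863). Ndufb3, also of the membrane arm, peaked earlier, at 14.5 ± 0.97 h, with 8.41, 8.78 and 8.57 at ZT12 and an amplitude of 0.24 ± 0.060 (SE, limma adjusted p = 0.0119).

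The other 6 called on chow had amplitudes from 0.14 (Ndufa12) to 0.30 (Atp5k, subunit e, the neighbour of subunit g) and peaks from 17.0 to 18.5 h. They were Ndufa12, Ndufb8, Ndufb7, Ndufa6, Atp5k and Atp5o, with limma adjusted p from 0.0124 to 0.0482. Atp5o was the only member called both lower on the high fat diet and rhythmic on chow (2.87% of all genes were). Its rhythm call was the least stable, lost in 23 of 36 fits that left out 1 sample, and that of Atp5k was lost in 12, whereas those of Ndufb2, Atp5l and Ndufa5 were kept in all 36. Left-out samples moved the count from 5 (without replicate 3 of chow at ZT4) to 15 (without replicate 3 of chow at ZT16). With median centring it was 5, and the share of all genes in that fit was not counted. No member of complexes III and IV passed on chow. In complex III the smallest p belonged to Uqcrb, which helps form the ubiquinone site (amplitude 0.12, limma adjusted p = 0.0971), followed by the small subunits Uqcr10 (0.14, limma adjusted p = 0.113) and Uqcr11 (0.16, limma adjusted p = 0.125). In complex IV it belonged to Cox5a (0.13, limma adjusted p = 0.124), followed by Cox5b, which binds zinc (0.11, limma adjusted p = 0.129), and Cox7a2l (0.18, limma adjusted p = 0.140). The fitted peaks of these 6 lay from 16.3 h (Uqcr10) to 17.6 h (Cox5a).

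On the high fat diet 2 members were called rhythmic, or 2.60%, against 11.0% of all genes. Ndufa5 measured 8.01, 7.82 and 8.06 at ZT0 and 8.67, 8.68 and 8.70 at ZT20, with an amplitude of 0.23 ± 0.066 (SE) and a peak at 15.1 ± 1.07 h (limma adjusted p = 0.0426). It was the only member called on both diets (8.20% of all genes were). Ndufa2, an accessory subunit of the matrix arm with a thioredoxin-like fold, peaked later, at 21.0 ± 1.07 h, with an amplitude of 0.12 ± 0.034 (SE, limma adjusted p = 0.0406). On chow its wave was alike in size and phase (0.094, peak at 21.5 h) but did not pass (limma adjusted p = 0.105). Each of these calls was lost in 12 of 36 fits that left out 1 sample. The count on the high fat diet was 5 with array weights, 1 with median centring and 0 without the filter, with the shares of all genes not counted.

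The other members ranked first in each complex did not pass on the high fat diet. In complex I, Ndufc2 came after Ndufa2 and Ndufa5, with an amplitude of 0.10 (limma adjusted p = 0.143). In complex III these were Uqcrfs1 (0.10, limma adjusted p = 0.171), Uqcr11 (0.12, limma adjusted p = 0.387) and Uqcr10 (0.11, limma adjusted p = 0.405). In complex IV they were Cox7a2 (0.0998, limma adjusted p = 0.135), Cox5a (0.11, limma adjusted p = 0.294) and Cox6a2, the isoform known from heart and muscle (0.10, limma adjusted p = 0.503). Those of complex V had amplitudes of 0.16 (Atp5mpl, limma adjusted p = 0.0946), 0.14 (Atp5e, the epsilon subunit of the central stalk, limma adjusted p = 0.111) and 0.064 (Atp5g3, limma adjusted p = 0.488).

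The smaller count on the high fat diet does not show that the rhythms differ. The test of a difference in rhythm called 0 members (0.0287% of all genes), and at an unadjusted limma p under 0.05 only Ndufa12 passed, 1.30% of members against 8.32% of all genes. Ndufa12 measured 10.55, 10.42 and 10.46 at ZT4 and 10.77, 10.73 and 10.79 at ZT20 on chow, and 10.60, 10.65 and 10.44 and then 10.46, 10.67 and 10.60 on the high fat diet. The fitted amplitude was larger on chow in 56 of 77 members, or 72.7%, against 60.6% of all genes, with medians of 0.077 on chow and 0.050 on the high fat diet. On the high fat diet 53 of 77 fitted peaks lay from 14 to 20 h, against 18.0% of all genes, and 42 members had their peak in that window on both diets, against 8.03% of all genes. The count of 53 was 33 with array weights and 43 without the 4 arrays of lowest weight.

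**Figure D5:**
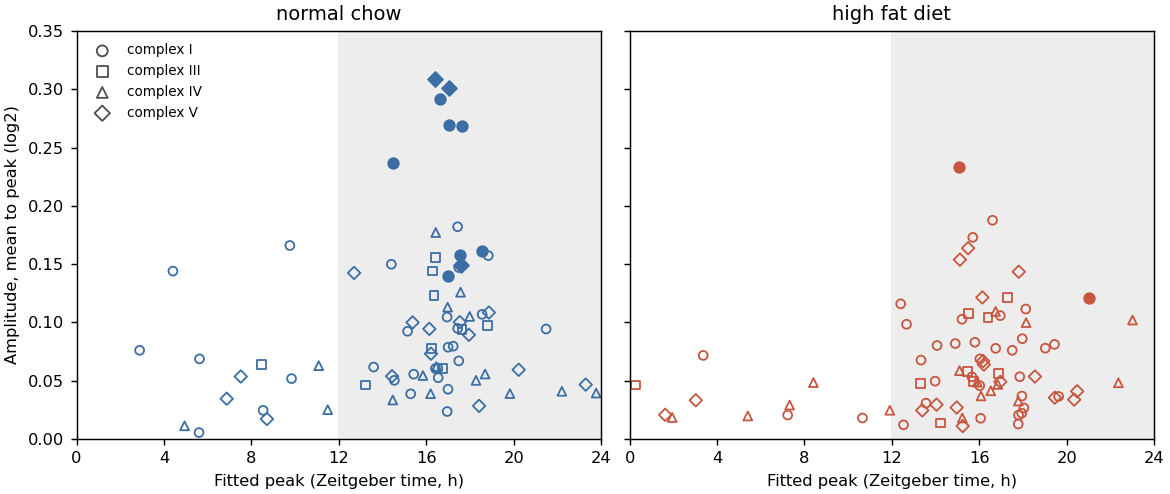
Fitted peak time (zeitgeber time in h) against fitted amplitude (log2) of the 77 tested members, for chow and the high fat diet, with a symbol for each complex, filled symbols for called members and grey from lights off at ZT12. The 10 members called on chow lie between 14.5 and 18.5 h, and the 2 called on the high fat diet are Ndufa5 and Ndufa2.

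A single wave is not the only shape a day can have. The limma test of any difference among the 6 times called 9 members on chow (21.0% of all genes) and 12 on the high fat diet (16.8% of all genes), 15.6% of the members tested. All 12 on the high fat diet had their highest mean at ZT20, and 11 of them their lowest at ZT0, Ndufb2 being the exception. That order with a call was found in 0.996% of all genes on the high fat diet. On chow it was found in 0 members and in only 0.222% of all genes. Whether the order differs between the diets was not tested. Members of all 4 complexes were among the 12, which were Ndufa1, Ndufa4, Ndufa5, Ndufa6, Ndufa8, Ndufb2, Ndufb6, Uqcr10, Uqcrq, Cox4i1, Cox5a and Atp5mpl. Ndufa4 measured 9.92, 10.06 and 10.05 at ZT0 and 10.73, 10.79 and 10.57 at ZT20 (any difference, limma adjusted p = 0.00174). Cox5a measured 9.92, 10.02 and 10.11 at ZT0 and 10.56, 10.57 and 10.49 at ZT20 (limma adjusted p = 0.00236). Neither overlapped between these times, which lie 4 h apart in the daily cycle. The count on the high fat diet was 22 with median centring, 37 with array weights, 10 without the 4 arrays of lowest weight and between 7 and 16 when 1 sample was left out. On chow it was 15 with quantile normalization, 19 with array weights, 3 without those 4 arrays and between 6 and 14 when 1 sample was left out. The shares of all genes called in these other fits were not counted, so these counts have no background beside them.

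Around the pathway, 10 lists of related genes (assembly factors, carriers, regulators and others) held 100 tested genes, of which 13 were lower on the high fat diet and 5 higher by limma, beside 9.80% and 11.2% of all genes. Of the 4 subunits of complex II none was called for diet, and Sdhb, its iron-sulfur subunit, was the only one rhythmic on the high fat diet. Of 14 complex I assembly genes tested 2 were lower (Foxred1 and Ndufaf4, -0.12 and -0.13) and 1 was higher (Ndufaf1, 0.15 ± 0.039, SE, limma adjusted p = 0.00596). Of 6 for complex III, Lyrm7, which matures the Rieske protein, was lower by -0.20 ± 0.038 (SE, limma adjusted p = 0.000225) and Uqcc2 was higher by 0.087. Of 17 for complex IV 1 was lower (Coa3, -0.11), and of 5 for ATP synthase none was called.

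Among 14 genes of coenzyme Q synthesis and cytochrome c, 3 were lower and none higher. The kinase-like proteins Coq8b and Coq8a differed by -0.21 ± 0.041 and -0.15 ± 0.033 (SE, limma adjusted p = 0.000289 and 0.00134). For Coq8a this average covers -0.31, -0.32, -0.37 and -0.10 at ZT0, ZT4, ZT8 and ZT12, but 0.067 and 0.14 at ZT16 and ZT20. No difference in rhythm was called for Coq8a (limma adjusted p = 0.380). Of 19 regulators of mitochondrial gene expression, Polrmt (the mitochondrial RNA polymerase, -0.12) and Pprc1 (-0.15) were lower. Nfe2l2, a factor of the oxidative stress response, was higher by 0.38 ± 0.059 (SE, limma adjusted p = 1.79e-05). Ppargc1a (-0.017), Nrf1 (-0.024), Esrra (-0.095) and Tfam (0.16), known regulators of these subunits, did not pass (limma adjusted p = 0.894, 0.810, 0.147 and 0.0643). Of 15 genes for proteases and cristae 3 were lower, led by the protease Clpp (-0.21 ± 0.038), and 2 higher, Clpx (0.23 ± 0.053), its partner, and Immt (0.14). The difference of Clpx ran from -0.32 at ZT8 to 0.71 at ZT16, without a called difference in rhythm (limma adjusted p = 0.111). Of 6 carriers Vdac1, the channel of the outer membrane, was lower (-0.083).

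Other large complexes were counted in the same way. Of 59 cytosolic ribosomal protein genes tested 44 were lower and 0 higher on the high fat diet, with a median of -0.19. Of 76 mitochondrial ribosomal protein genes 7 were lower and 3 higher (median -0.015), and of 38 proteasome genes 6 were lower and 2 higher (median -0.035). Of these 4 lists, the oxidative phosphorylation and cytosolic ribosomal lists had 0 genes called higher, and the lists were not tested against each other. Fitted chow peaks from 14 to 20 h were found in 31 of the 59 cytosolic ribosomal, 24 of the 76 mitochondrial ribosomal and 5 of the 38 proteasome genes, against 55 of the 77 members.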

How the data were processed

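Liver RNA of 36 samples was measured on whole-transcript arrays. The deposited values are linear intensities that the authors made with Affymetrix Expression Console 1.1.1 and PLIER 2.0, per the submitters' processing notes. The normalization between arrays is not given in the sources used here. Values were used as log2(intensity + 16) with no further scaling, which understates changes of dim probe sets.

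Of 35556 probe sets, 21789 name 1 gene, 1621 several and 12146 are unnamed here. Symbols were updated by Entrez identifier through RefSeq's table for GRCm38.p6, which also gave the promoters. Some keep older names (Atp5o, Atp5g1, Atp5l). Each gene took its brightest probe set. Cox7c and Ndufb4 share their probe sets with a second gene and are no members here. Of the 17 members with several probe sets, only Atp5h had a diet difference of another sign on its other probe sets. Probe positions were not at hand. Whether a probe set also reads a related copy elsewhere in the genome was therefore not checked, for Atp5l with its 6 probe sets as for the others. Genes above the 30th percentile of mean level (6.11) were tested.

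R 4.3.3 and limma 3.58.1 fitted 12 group means (24 residual degrees of freedom) for diet effects, and a 24 h cosine and sine for each diet for rhythm. Adjusted p-values are Benjamini-Hochberg over 13956 genes, called under 0.05. The scripts were tested on simulated data. Named with values were, within a complex, at most 4 called members ranked by p for the average diet effect, the 3 ranked first for rhythm on each diet, every member called at 1 time (at most 4), isoforms and members near the filter. Other members named were chosen after their values were seen. Members and lists were chosen with earlier results of these data known, and the NRF1 core was shortened after a first search had been seen. The alternatives tried were scaling, filter, offset, threshold, probe set choice, array weights, a robust prior, a replicate block, and leaving out samples. Their number, 3 per group, limits the precision.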

Additional observations from a re-analysis of the deposited data

How the results depend on the processing

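The counts of called members and the median average differences were recomputed under 13 alternatives fixed or added as listed above, and with each of the 36 samples left out. The sign counts at each time, the counts of groups without overlap and the times of the highest and lowest means were not recomputed. All 5 median differences (all members and each complex) were below 0 in all of these fits. That over all members, -0.041, ran from -0.081 (median centring) to -0.030 (quantile normalization) over the alternatives and from -0.051 to -0.034 with 1 sample left out. Quantile normalization gave 0 members called at ZT12 and 15 with any time difference on chow. Median centring gave 22 lower on average, 20 called at ZT0, 0 at ZT4, 5 rhythmic on chow, 1 rhythmic on the high fat diet and 22 with any time difference on it. Without the filter, 2 were called at ZT0, 0 at ZT4, 0 at ZT12 and 0 rhythmic on the high fat diet. Array weights gave 19 lower and 2 higher on average, 8 called at ZT0, 2 at ZT4, 5 at ZT8, 2 at ZT12, 1 at ZT20 and 5 rhythmic on the high fat diet, with any time difference in 19 on chow and 37 on the high fat diet. An offset of 1 gave 0 at ZT4. At an adjusted p under 0.01, 7 were lower on average, 0 were called at ZT0, ZT4 and ZT12, 3 were rhythmic on chow and 0 on the high fat diet, and 5 and 3 had any time difference. Without the 4 arrays of lowest weight (replicate 2 of chow at ZT4, 1 at ZT16 and 3 at ZT20, and 2 of the high fat diet at ZT20), an alternative chosen after seeing the data, 0 were called at ZT4 and 3 had any time difference on chow. Testing any difference among the 6 times in place of a wave called 12 on the high fat diet. The cause of these shifts was not tested, except that a stricter threshold leaves fewer calls by construction. Calls over all genes were counted in the alternatives only for the average diet effect. They numbered 1926 lower and 827 higher with median centring, and 1996 lower and 2263 higher with array weights. For the other counts, whether a shift is shared by all genes was not computed.

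With 1 sample left out, 8 to 14 members were lower on average and 0 to 1 higher. The calls at ZT0 numbered 0 to 4, at ZT4 0 to 1 and at ZT12 0 to 1. Those rhythmic on chow numbered 5 to 15, on the high fat diet 0 to 2, and those with any time difference 6 to 14 on chow and 7 to 16 on the high fat diet. ZT8, ZT16, ZT20 and the difference in rhythm stayed at 0.

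Same-numbered samples of the diets at one time were not treated as paired, since the labels state no pairing. The correlation of their deviations ran from -0.412 to 0.350 over 18 pairs, with 5 above 0.1. With 3 samples per group this cannot decide whether equal numbers share a batch. With the replicate number as a block, 12 members were lower on average, 3 were called at ZT0, 10 were rhythmic on chow and 2 on the high fat diet, and Atp5mpl lost its average call.

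Some average differences that were called in no fit changed sign. Under median centring Atp5k was at -0.018, Ndufb2 at -0.014, Uqcrb at -0.0040 and Cox6a2 at -0.0052. Under quantile normalization Cox6a2 was at -0.0066 and Cox6b1 at 0.017. With array weights Cox6b1 was at 0.0023 and Cox8c at 0.058, and without the 4 arrays of lowest weight at 0.0022 and 0.029. Over the fits with 1 sample left out, Atp5e ran from -0.035 to 0.0090, Cox6b1 from -0.019 to 0.0087, Cox8c from -0.032 to 0.015, Ndufb3 from -0.050 to 0.0060 and Atp5k from -0.031 to 0.050.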

Other observations

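Some subunits are read only by probe sets that the annotation gives to several genes, and these stand outside the counts above. The 3 probe sets shared by Cox7c and Gm12338 measured 12.66 ± 0.08, 12.71 ± 0.06 and 12.71 ± 0.08 on chow and 12.70 ± 0.10, 12.73 ± 0.09 and 12.75 ± 0.10 on the high fat diet (SD, n = 18 each). The 2 shared by Ndufb4 and Ndufb4b measured 11.60 ± 0.11 and 11.83 ± 0.11 on chow and 11.63 ± 0.10 and 11.84 ± 0.10 on the high fat diet. The 1 shared by Ndufs5 and Ndufs5-ps measured 8.21 ± 0.15 on chow and 8.30 ± 0.15 on the high fat diet, and the probe set of Ndufs5 alone was likewise higher on the high fat diet, without a call. All 6 shared probe sets had a higher mean on the high fat diet, by 0.016 to 0.087, less than 1 SD in each diet. They are not separate observations, since those of Cox7c and of Ndufb4 read the same pair of genes. Of the 77 tested members, 18 had a difference of 0 or above. Over all tested genes 42.5% had a difference below 0, and the median was 0.017. The shared probe sets were not tested against the members.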
